A study of Homo sapiens with 6 samples.

Results

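Ribosomal protein pseudogenes are, for the most part, copies of the messenger RNAs of the cytosolic ribosome that were inserted back into the genome. They were selected on their symbol, a ribosomal protein symbol followed by the letter P and a number, and on a measured FPKM above 0 in at least 1 of the 4 libraries used. That value says only that a member was detected and is not a result here. The rule found 584 of the 29489 genes in the table, under 580 distinct symbols, and left out none that matched by symbol. The lowest member by mean level, RPL31P15, lay at 0.000271 FPKM. The 584 members named 71 parent genes, all of them present in the table. Of the members, 400 had a large-subunit parent and 184 a small-subunit parent.

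The ribosome is built from a large and a small subunit, each an RNA scaffold carrying many proteins whose genes are among the most strongly expressed of any growing cell. Their short, abundant, polyadenylated mRNAs are frequent templates for LINE-1 reverse transcription, which leaves intronless copies without the parent's promoter. Most copies gather mutations. A young copy differs from its parent at few bases, so a short sequencing read can match both places.

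RNA-seq of poly(A) RNA was made from the cell line SU-DHL-4, long established from a human diffuse large B-cell lymphoma of the germinal-centre kind. The labels put 3 samples in a group CON and 3 in a group KD, name no gene for KD, and give no agent, dose or time for either group; nothing in them says that replicates came from separate cultures or clones. The study concerns the transcription factor ZHX2, and it asked which pathways differed. ZHX2 lay at 38.5 and 36.7 FPKM in CON and at 11 FPKM in both KD libraries. FPKM are fragments scaled by transcript length and by the library's total, so the sequencing depth behind each value is unknown. Replicate 1 of each group was a scaled mean of the other columns and carried nothing of its own, so 4 libraries were used, replicates 2 and 3 of each group. P-values therefore measure the spread between 2 libraries a group, which may be technical.

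Total FPKM ran from 267622 to 273768, and 11400 to 11651 genes reached 1 FPKM. Mitochondrially encoded genes held 25.6% and 25.9% of the FPKM in CON and 29.9% and 30.3% in KD; their part in any fall of the other genes was not tested. Of 10 B cell markers, 9 were at 1 FPKM or more in every library, and their sum was 815 to 826 FPKM in CON and 632 to 643 in KD. No T, NK or myeloid marker of 12 reached 1 FPKM in all 4 libraries, nor did 4 of 5 fibroblast and epithelial markers. Summed T and NK markers lay at 1.34 to 1.82 FPKM in CON and 0.881 to 0.968 in KD. Summed myeloid markers lay at 0.0502 to 0.0542 and 0.467 to 0.523, and the fibroblast and epithelial sum at 3.44 to 3.45 and 1.91 to 2.29.

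The sequences of 5 members beside their parents show how far reads from the stretches printed could be told apart. For RPL24P4, RPL14P1 and RPS12P3 the 150 aligned positions with the most differences within the parent's coding part were chosen. Elsewhere in that part these copies are harder to tell from the parent. The longest run identical to the parent was 126 bases in RPL24P4 and 205 in RPL14P1. They were read from GENCODE release 29 transcripts on GRCh38, 5′ to 3′, with each base that differs from the other copy in capitals. RPS28P7 (chr11:82689559-82689768, plus strand), the second most abundant member, was identical to the coding part of RPS28, bases 32 to 241 of its mRNA, over all 210 bases, and 1 line stands for both.
RPS28P7 and RPS28: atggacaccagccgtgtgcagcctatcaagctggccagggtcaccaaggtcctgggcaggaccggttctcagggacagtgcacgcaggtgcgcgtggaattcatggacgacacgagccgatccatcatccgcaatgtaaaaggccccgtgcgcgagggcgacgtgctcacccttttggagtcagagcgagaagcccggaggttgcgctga

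RPS27P3 (chr12:3211663-3211917, minus strand), the third most abundant, differed from bases 43 to 297 of the RPS27 mRNA at 1 of 255 positions, G156A, written as the parent's base, the position from the first base shown, and the pseudogene's base.
RPS27P3: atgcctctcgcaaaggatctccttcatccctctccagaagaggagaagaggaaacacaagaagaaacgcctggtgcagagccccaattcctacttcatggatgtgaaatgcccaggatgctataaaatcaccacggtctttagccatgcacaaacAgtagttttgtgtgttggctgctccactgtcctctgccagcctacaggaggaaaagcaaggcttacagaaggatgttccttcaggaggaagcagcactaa
RPS27: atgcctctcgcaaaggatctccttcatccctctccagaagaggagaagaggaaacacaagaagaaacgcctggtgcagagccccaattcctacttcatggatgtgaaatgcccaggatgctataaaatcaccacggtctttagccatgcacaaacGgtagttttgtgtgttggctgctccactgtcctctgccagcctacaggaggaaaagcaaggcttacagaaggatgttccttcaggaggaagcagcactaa

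RPL24P4 fell in KD while its parent did not pass the test. A stretch of 150 bases (chr6:42956418-42956567, minus strand) differed from bases 268 to 417 of the RPL24 mRNA at A25G, T111C, G146A and A150G.
RPL24P4: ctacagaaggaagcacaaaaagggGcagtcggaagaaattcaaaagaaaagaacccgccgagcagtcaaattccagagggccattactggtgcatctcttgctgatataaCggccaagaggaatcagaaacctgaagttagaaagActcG
RPL24: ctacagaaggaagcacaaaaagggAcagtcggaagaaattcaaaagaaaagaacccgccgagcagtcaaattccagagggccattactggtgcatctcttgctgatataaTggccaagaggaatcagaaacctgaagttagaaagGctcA

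RPL14P1 and RPS12P3 were the members that rose. The stretch of RPL14P1 (chr12:62965528-62965677, plus strand) differed from bases 336 to 485 of the RPL14 mRNA at A3G, G7A, G18A and T150C.
RPL14P1: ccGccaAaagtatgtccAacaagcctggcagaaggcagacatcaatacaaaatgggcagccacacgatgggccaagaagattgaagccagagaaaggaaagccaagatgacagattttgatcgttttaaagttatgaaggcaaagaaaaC
RPL14: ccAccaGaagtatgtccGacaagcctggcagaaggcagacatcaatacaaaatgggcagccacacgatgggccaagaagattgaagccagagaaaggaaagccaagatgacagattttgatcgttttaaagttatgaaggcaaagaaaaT

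RPS12P3 was the most diverged of the 5. Its stretch of 150 bases (chr2:60938448-60938597, minus strand) aligned with 141 bases of the RPS12 mRNA, positions 217 to 357, with 14 substitutions and 9 inserted bases at the right end of the stretch.
RPS12P3: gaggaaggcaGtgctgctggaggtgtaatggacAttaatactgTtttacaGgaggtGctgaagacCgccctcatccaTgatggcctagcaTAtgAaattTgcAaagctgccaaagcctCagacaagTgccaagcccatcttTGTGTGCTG
RPS12: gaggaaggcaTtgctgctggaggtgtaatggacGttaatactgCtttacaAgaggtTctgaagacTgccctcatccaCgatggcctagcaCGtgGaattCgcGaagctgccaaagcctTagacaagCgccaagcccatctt

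Most members were barely detected and a few were abundant. The median member lay at 0.135 FPKM over the 4 libraries, with quartiles at 0.0329 and 0.653; 463 lay under 1 FPKM and 264 under 0.1. At the other end 45 reached 10 FPKM and 12 reached 100. The 10 most abundant held 54.0% of the members' summed FPKM and the 20 most abundant 76.8%. Values above 0 were found in all 4 libraries for 274 members, in 3 for 68, in 2 for 79 and in 1 for 163. Members listed at 0 in both CON libraries numbered 94, none above 0.744 FPKM in KD. Those at 0 in both KD libraries numbered 113, none above 1.61 FPKM in CON. 

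RPS2P5, a copy of the gene for small-subunit protein uS5, was the most abundant member, at 425 and 428 FPKM in CON and 376 and 361 in KD. RPS28P7, whose parent encodes a small protein near the mRNA exit of the small subunit, followed at 384 and 353 FPKM in CON and 314 and 309 in KD. RPS27P3, copied from the gene of a zinc-finger protein of the small subunit, lay at 270.4 and 277 in CON and 192 and 181 in KD. In all 3 both KD values lay below both CON values, as they did in 42.9% of all genes tested. RPL7P1, from a large-subunit gene, lay at 179 and 182 FPKM in CON and 149 and 158 in KD. RPS7P1 lay at 158 and 151 in CON and 139 and 146 in KD. Both again had KD below CON, by a narrow gap in RPS7P1.

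A further 4 of the first 10 lay lower. RPL10P16, from the gene of uL16, lay at 131 and 139.5 FPKM in CON and 122 and 129 in KD. RPL13AP5 lay at 144 and 148 in CON and 109.7 and 119.8 in KD. RPL7P9 lay at 129 and 147 in CON and 104 and 120.4 in KD. RPL9P7 lay at 138 and 129 in CON and 103 in both KD libraries. In each of these 4 both KD values lay below both CON values, against the same 42.9% of all genes.

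**Figure D1:**
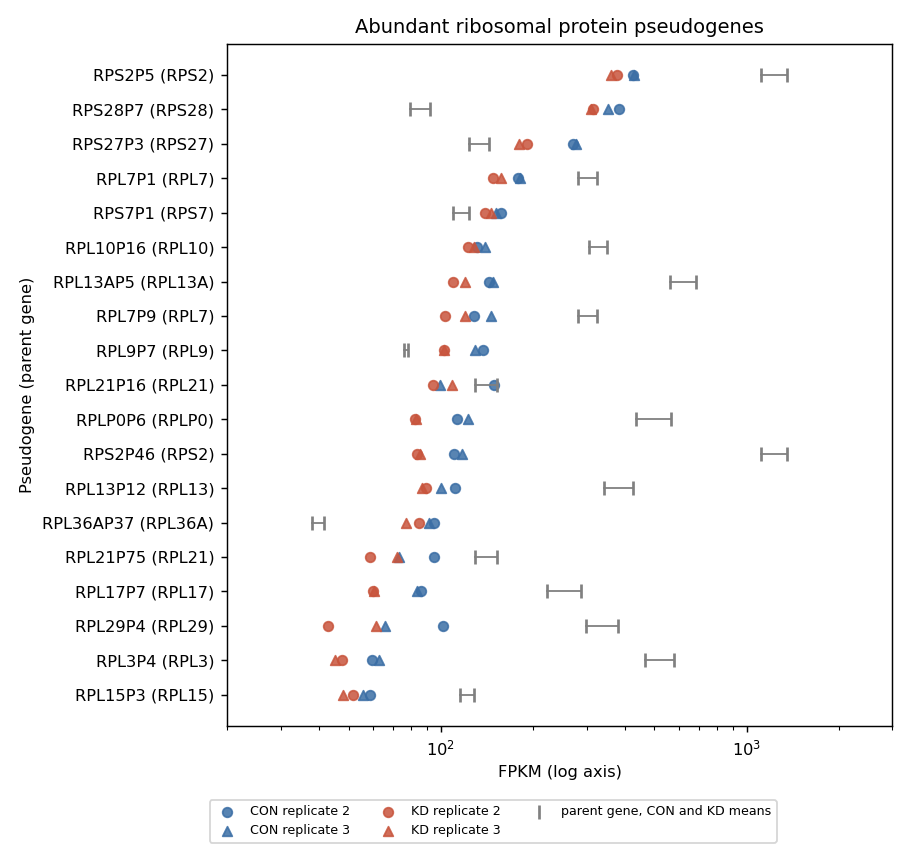
FPKM (log axis) of 19 of the 20 most abundant ribosomal protein pseudogenes in each of the 4 libraries, with grey marks for the mean FPKM of the parent gene in CON and KD joined by a line. Most members lie below their parent, while RPS28P7, RPS27P3, RPS7P1, RPL9P7 and RPL36AP37 lie above it.

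Levels went with likeness to the parent more than with the level of the parent. Of the members, 578 could be aligned to a coding transcript of the parent, with a median identity of 92.5% over the aligned part. Under 85% identity, 123 members had a median of 0.0732 FPKM and 3 of them reached 1 FPKM in at least 2 libraries. From 85% to 90%, 95 members had a median of 0.048 FPKM, and from 90% to 95%, 164 had 0.0779. The rise began above that: 121 members at 95% to 98% had a median of 0.449 FPKM, 39 at 98% to 99% had 6.27, and 36 at 99% or more had 29.4. Of the last 36, 32 reached 1 FPKM in at least 2 libraries. Across the 578 members, Spearman's rho between mean FPKM and identity was 0.556, and between mean FPKM and the parent's mean FPKM 0.0599; both describe these members, which share their libraries and, within a family, their parent and ancestry.

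The same ordering held for how much of a member's sequence was found in the parent or any other gene. All stretches of 100 bases of each member were looked up in all GENCODE transcripts. In the group at 99% identity or more, the median member shared 64.3% of them with any other gene, the parent included. In the groups under 95% the median was 0. In all, 356 of 578 members shared none with any other gene. The 20 most abundant members had a median identity of 99.5% and none under 97.3%. The sources used here give neither the read length nor the treatment of reads that match several places. How much of a member's FPKM came from its own locus was therefore not tested.

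**Figure D2:**
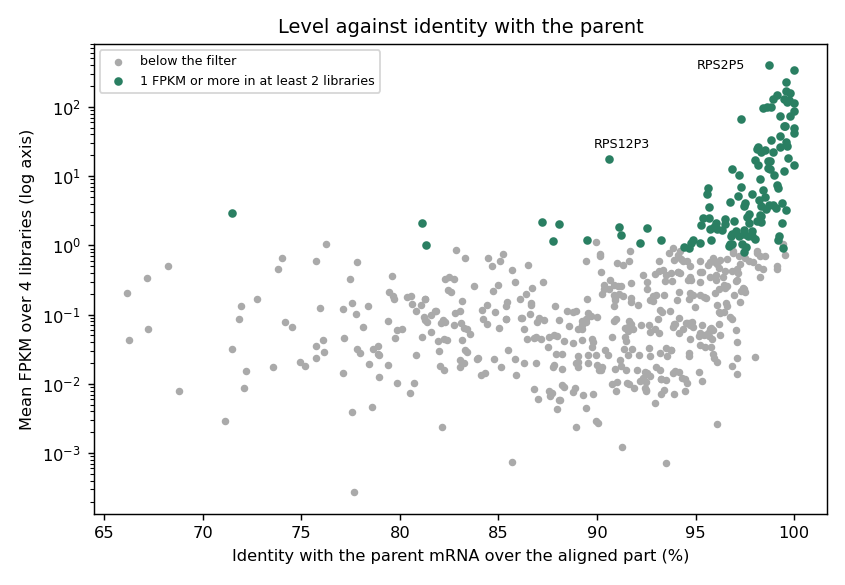
Mean FPKM over 4 libraries (log axis) against percent identity with the parent mRNA for the aligned members above 0, 1 point a member. Green points, at 1 FPKM or more in at least 2 libraries, gather above 95% identity, and RPS12P3 at 90.6% stands above its neighbours.

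Identical copies show the limit. The members with 100% identity numbered 6: RPS28P7, RPL21P16, RPL36AP37, RPL39P3, RPL41P1 and RPL41P5, with means of 340.1, 113, 87.1, 49.2, 42.0 and 14.6 FPKM. RPS28P7 stood at 410.4%, 385%, 402% and 386% of the FPKM of RPS28 in the order CON 2, CON 3, KD 2 and KD 3, although no base tells the copy from the coding part of its parent. RPL36AP37 stood at 226%, 222%, 225% and 205% of RPL36A. RPL21P16 was unsteady between libraries of 1 group, at 149.6 and 99.7 FPKM in CON, while RPL21 itself lay at 148 and 158. FPKM divide by annotated length, which is 210 bases for RPS28P7 and 321 for RPL36AP37; the part of that in these ratios was not tested.

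Abundant members varied more between libraries of a group than other genes at or above the same floor of 10 FPKM. Levels above that floor were not matched. Among members with a mean of at least 10 FPKM, the median coefficient of variation between the 2 libraries was 5.49% in CON and 5.27% in KD (45 members), against 2.12% and 2.58% for the 4295 genes at that level in the whole table and 0.913% and 1.73% for 83 ribosomal protein genes. RPL29P4, from a large-subunit gene, lay at 102 and 65.7 FPKM in CON, and RPS26P6 at 36.0 and 16.4.

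Copies were spread unevenly over the parents. RPL21 had 56 members, RPL23A 37, RPL7A 33, RPSA 28, RPL7 24 and RPL12 21, while 10 parents had 1 each. In all 19 parents had 10 or more. More copies did not mean more measurable ones: 6 of the 56 RPL21 copies, 6 of the 24 RPL7 copies and 0 of the 11 RPS4X copies reached 1 FPKM in at least 2 libraries. In most of the 19, 1 copy held the larger part of the family's FPKM. RPS27P3 made 96.7% of the FPKM of the RPS27 copies, RPL36AP37 96.2% of the RPL36A copies and RPL13AP5 94.3% of the RPL13A copies. RPS2P5 made 78.9% among the RPS2 copies and RPL21P16 54.5% among the RPL21 copies.

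Summed over a family, the copies exceeded the parent's FPKM for 3 of the 19, at 228% for RPL36A, 178% for RPS27 and 147% for RPL21, and came to 99.8% for RPL7. For the rest of the 19 they ran from 0.459% in RPS4X to 42.4% in RPL17.

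**Figure D3:**
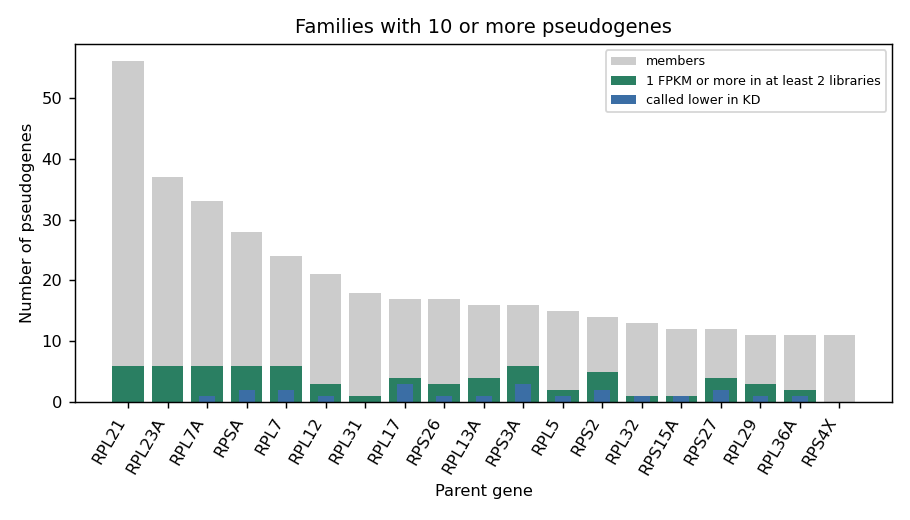
Number of pseudogenes for each parent with 10 or more of them, with bars drawn over each other and all starting at 0. Grey shows all members, green those at 1 FPKM or more in at least 2 libraries, and blue those called lower in KD; no family with many copies has more than 6 measurable ones.

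The members together took a smaller share of the transcriptome in KD. Their summed FPKM was 4030 and 3891 in CON and 3192 and 3300 in KD, 3961 ± 98 against 3246 ± 76.6 (SD, n = 2), so the sum was 18.0% lower. That was 1.5% and 1.45% of all FPKM in CON and 1.17% and 1.21% in KD. The groups did not overlap, and the exact two-sided permutation p was 0.33, the smallest that 2 libraries against 2 can give. The ribosomal protein genes summed to 21868 and 21817 FPKM in CON and 18362 and 18177 in KD, which is 16.4% lower. Members therefore stood at 18.4% and 17.8% of the ribosomal protein genes' FPKM in CON and at 17.4% and 18.2% in KD, with overlapping groups. In bulk RNA a change in which cells are present and a change in RNA per cell cannot be told apart, and both sums are shares of a total in which mitochondrial genes held more in KD.

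Gene by gene, KD was compared with CON by limma on log2(FPKM + 1), fitted and adjusted over the 11916 genes that reached 1 FPKM in 2 or more libraries; a gene is said to have risen or fallen when its adjusted p was under 0.05. On this scale the changes of low genes are understated. The filter passed 124 members and left out 460. Of the 124, 41 fell and 2 rose, and 81 did not pass. An unadjusted p under 0.05 was found for 52 of them, against 7615 of all 11916 genes tested. Of all genes tested, 31.1% fell and 27.6% rose, 58.6% in either direction. The median log2 change of the members was -0.21, with a range from -1.12 to 0.54, against -0.02 over all genes tested. Changes were negative in 102 of the 124, against 6249 of all 11916 genes tested. In 69 members both KD libraries lay below both CON libraries and in 11 above, against 42.9% and 38.8% of all genes tested.

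The parents showed the same direction with tighter values. Of the 71 parents, 67 fell and none rose, with 67 at an unadjusted p under 0.05 and a median log2 change of -0.23. All tested ribosomal protein genes numbered 85, of which 77 fell and 2 rose. Pseudogenes of other genes numbered 291 tested, of which 74 fell and 31 rose; their median log2 change was -0.12. By subunit, 25 of 82 large-subunit members fell and 1 rose, and 16 of 42 small-subunit members fell and 1 rose, beside 31.1% of all genes tested that fell.

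Calls were counted by level and by shared sequence, and the groups by shared sequence also differ in level. The counts stand beside 31.1% of all genes tested that fell and 27.6% that rose. Of 55 members at a mean of 5 FPKM or more, 28 fell and 2 rose. Of 69 below, 13 fell and none rose. Of 26 tested members sharing at least 50% of their 100-base stretches with any other gene, the parent included, 14 fell and none rose. Their median level was 34.5 FPKM. Of 73 sharing less, 21 fell and 1 rose, at a median of 3.36 FPKM. Of 22 sharing none, 6 fell and 1 rose, at a median of 2.0 FPKM. The median log2 changes of these 3 groups were -0.24, -0.21 and -0.25.

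Among the 10 most abundant, 9 fell and RPL10P16 did not pass, beside 31.1% of all genes tested that fell. RPS2P5 changed by -0.21 on the log2 scale (SE 0.03, limma adjusted p = 0.00242) and RPS28P7 by -0.24 (SE 0.04, adjusted p = 0.00803). RPS27P3 changed by -0.55 (SE 0.03, adjusted p = 0.000422), which set it apart in size from RPL7P1 at -0.23, RPL13AP5 at -0.35 and RPL9P7 at -0.38. RPL7P9 (-0.30, adjusted p = 0.0447) and RPS7P1 (-0.11, adjusted p = 0.0461) passed narrowly. The RPL7P9 call was lost in 7 of 14 alternatives, among them without CON replicate 3 (adjusted p = 0.152), without KD replicate 2 (0.141) and under each of 3 other scalings (0.0593 to 0.0806). The RPS7P1 call was lost in 10 of 14 alternatives, without CON replicate 2 (0.188), CON replicate 3 (0.0616) and KD replicate 2 (0.136) among them. With quantile scaling the changes of RPS2P5 and RPS28P7 shrank to -0.01 (adjusted p = 0.49) and -0.09 (0.144).

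The largest falls were in members of lower level. RPS26P6 lay at 36.0 and 16.4 FPKM in CON and 11.8 and 9.64 in KD, and changed by -1.12 (SE 0.36, adjusted p = 0.0487). The CON libraries differed from each other by more FPKM than CON 3 did from either KD library, and the call was lost in 7 of 14 alternatives, among them without KD replicate 2 (0.104), without KD replicate 3 (0.168) and under each of 3 other scalings (0.0526 to 0.0563). RPL29P11 lay at 10.5 and 7.70 in CON and 3.20 and 5.49 in KD, a change of -0.94 (adjusted p = 0.0262). RPL10P6 lay at 3.18 and 3.23 in CON and 0.838 and 1.74 in KD, a change of -0.91 (adjusted p = 0.0152).

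RPL12P47 is a fragment of 127 bases and lay at 3.38 and 2.31 FPKM in CON and 1.5 and 0.706 in KD (-0.88, adjusted p = 0.0272). RPS27P8 lay at 2.12 and 1.98 in CON and 0.961 and 0.467 in KD (-0.85, adjusted p = 0.0102). RPS3AP20 lay at 1.48 and 1.63 in CON and 0.760 and 0.362 in KD (-0.72, adjusted p = 0.0146). In each the KD libraries differed from each other as well. RPS15AP1 lay at 1.07 and 1.35 in CON and 0.428 and 0.33 in KD (-0.68, adjusted p = 0.00905). RPS27P8, RPS3AP20 and RPS15AP1 were under 1 FPKM in both KD libraries and passed the filter only through CON. The filter thus favoured a fall in these members, and their calls are no independent support for one. RPL32P18 lay at 3.54 and 3.49 in CON and 1.49 and 2.47 in KD (-0.62, adjusted p = 0.0293). With 1 library left out, adjusted p rose to at most 0.105 for RPL12P47 (without CON replicate 2), 0.0967 for RPL29P11 (without CON replicate 2), 0.0964 for RPL32P18 (without CON replicate 2), 0.0672 for RPS3AP20 (without CON replicate 3), 0.0575 for RPL10P6 (without CON replicate 3) and 0.0527 for RPS15AP1 (without CON replicate 3). RPL12P47 also lost its call without KD replicate 3 (0.0751), RPL29P11 without KD replicate 2 (0.0595), RPL32P18 without CON replicate 3 (0.0902), RPS3AP20 without CON replicate 2 (0.0501) and RPL10P6 without CON replicate 2 (0.0552). With no filter on low values the calls of RPS26P6 (0.189), RPL32P18 (0.128), RPL12P47 (0.127), RPL29P11 (0.124), RPL10P6 (0.0866), RPS3AP20 (0.0803) and RPS27P8 (0.0659) were lost.

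The members that rose did so against falling parents. RPS12P3 lay at 14.3 and 16.2 FPKM in CON and 20.9 and 19.0 in KD, a log2 change of 0.36 (SE 0.08, adjusted p = 0.0133). RPS12, which encodes a small-subunit protein, lay at 1125 and 1093 FPKM in CON and 862 and 888 in KD, and fell by 0.34. With 90.6% identity, 26 substitutions and 12 gap positions, RPS12P3 shared no 100-base stretch with its parent or any other gene, and its longest run identical to RPS12 was 94 of 401 bases. Its longest open reading frame had 107 codons against 132 in RPS12.

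RPL14P1 lay at 12.9 and 15.2 FPKM in CON and 19.2 and 18.5 in KD, a log2 change of 0.41 (SE 0.08, adjusted p = 0.0122). RPL14, from the large subunit, lay at 55.5 and 56.0 in CON and 50.9 and 48.9 in KD and fell by 0.16. The identity of this copy was 98.8% with 8 substitutions, and 33.5% of its 100-base stretches were found in the parent. Its longest open reading frame had 32 codons against 215 in RPL14. Neither lies within another gene in the annotation. Both calls were lost with no filter on low values (adjusted p = 0.0706 for RPS12P3 and 0.0683 for RPL14P1) and without KD replicate 2 (0.0542 and 0.0552).

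A further 9 members had both KD libraries above both CON libraries without passing the test. The largest by change were RPL11P3 (0.54, adjusted p = 0.0828), RPL23AP65 (0.47, 0.0531), RPL37P6 (0.40, 0.0979) and RPS23P8 (0.36, 0.0957). Their means lay between 1.09 and 3.45 FPKM, and they were singled out after their values were seen. RPL11P3 and RPL37P6 were under 1 FPKM in both CON libraries and passed the filter only through KD. The filter thus favoured a rise in RPL11P3 and RPL37P6, and their values are no independent support for one. All 4 were chosen with both KD libraries above both CON libraries. An upward change with 1 library left out was therefore fixed in advance and is no support. Without KD replicate 2 and without KD replicate 3, the log2 change was 0.83 and 0.24 for RPL11P3 and 0.60 and 0.20 for RPL37P6. For RPS23P8 it was 0.15 and 0.57. RPL23AP65 changed by 0.30 without CON replicate 2 and by 0.63 without CON replicate 3, and passed under each of 3 other scalings.

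**Figure D4:**
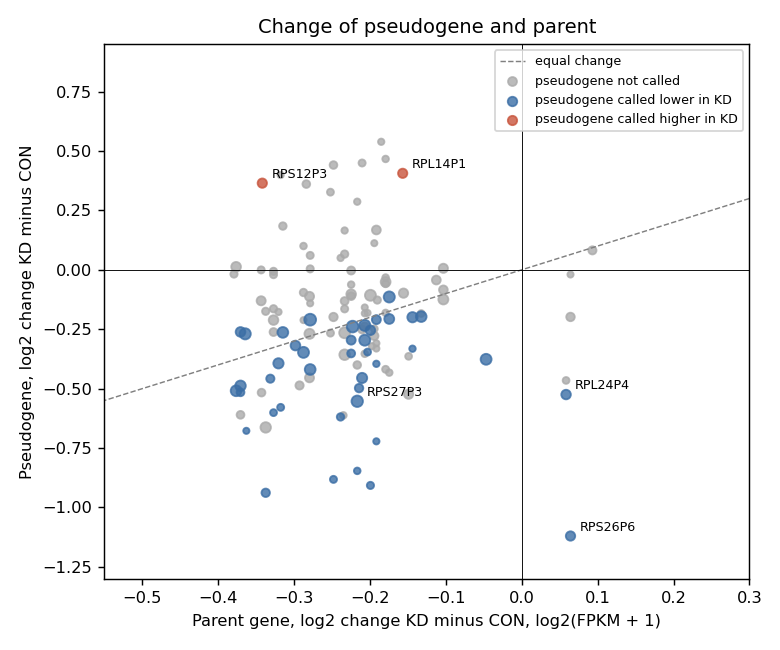
Log2 change of each tested member against that of its parent, KD minus CON on log2(FPKM + 1), with larger points for higher levels and a dashed line at equal change. Parents lie mostly between -0.4 and -0.1, while members scatter from -1.12 to 0.54; RPS12P3 and RPL14P1 are the called rises, and RPS26P6 and RPL24P4 fell beside parents that did not pass the test.

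To compare each member with its parent directly, the difference of their log2(FPKM + 1) was taken in each library and tested by limma over all 405 tested pairs of a pseudogene and its parent, 124 of them ribosomal. None of the 124 ratios passed in either direction. An unadjusted p under 0.05 was found for 17 of them, against 65 of the 281 other pairs. The fit shares information on spread over all 405 pairs, so small changes of a steady ratio could be missed. For RPS2P5 the SE was 0.136 for the ratio and 0.025 for the gene alone. Of all 405 pairs 5.43% passed, 0.988% higher in KD and 4.44% lower, which were 4 and 18 of the 281 other pairs. The median change of the ratio was -0.02 for the ribosomal pairs, from -1.18 to 0.72, and 65 of 124 were negative.

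The ratio moved little across libraries in some abundant members, chosen here after their values were seen. RPS2P5 stood at 31.4% of RPS2 in both CON libraries, and at 32.7% and 33.2% in KD. RPL13AP5 stood at 21.0% and 21.7% of RPL13A in CON and 19.9% and 21.0% in KD. RPL7P1 stood at 54.1% and 57.0% of RPL7 in CON and 52.6% and 56.5% in KD. The groups overlapped in RPL13AP5 and RPL7P1, while RPS2P5 stood slightly higher in KD. Others moved more: RPL21P16 ranged from 63.0% to 101% of RPL21 and RPL29P4 from 14.1% to 27.0% of RPL29, each with overlapping groups.

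Some ratios separated the groups. RPS27P3 stood at 184% and 197% of RPS27 in CON and 153% and 148% in KD, a log2 change of the ratio of -0.34 (unadjusted p = 0.0443, limma adjusted p = 0.233). RPL9P7 stood at 176% and 166% of RPL9 in CON and 134% and 137% in KD (-0.33, adjusted p = 0.24). RPL9 lay at 78.5 and 77.9 FPKM in CON and 76.5 and 74.8 in KD and did not pass (log2 change -0.05, adjusted p = 0.171). RPS12P3 stood at 1.27% and 1.48% of RPS12 in CON and 2.42% and 2.14% in KD (0.71, adjusted p = 0.0884), and RPL14P1 at 23.2% and 27.1% of RPL14 in CON and 37.7% and 37.8% in KD (0.56, adjusted p = 0.132).

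RPL24P4 was picked out after its values were seen. It lay at 30.6 and 23.4 FPKM in CON and 17.1 and 19.6 in KD (log2 change -0.52, adjusted p = 0.0265). RPL24, a large-subunit gene, lay at 52.8 and 51.8 in CON and 53.7 and 55.4 in KD (0.06, adjusted p = 0.155). The call was lost without KD replicate 2 (adjusted p = 0.107) and with no filter on low values (0.123). The copy stood at 57.8% and 45.1% of RPL24 in CON and 31.8% and 35.4% in KD, which did not pass (-0.58, adjusted p = 0.165). Of the copy, 8.38% of the 100-base stretches were found in the parent. RPS26P6 stood at 21.6% and 8.39% of RPS26 in CON and 6.27% and 5.10% in KD (-1.18, adjusted p = 0.246), and RPS26 itself lay at 167 and 195 FPKM in CON and 188 and 189 in KD.

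**Figure D5:**
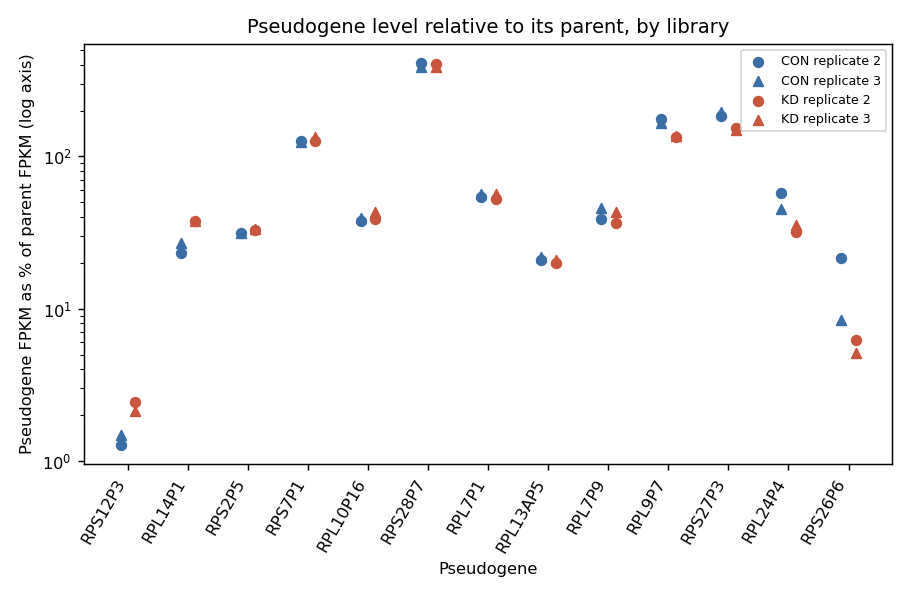
FPKM of 13 members as a percentage of the parent's FPKM (log axis) in each library. RPS2P5 and RPL7P1 hold nearly level across the 4 libraries, RPS12P3 and RPL14P1 lie higher in KD, and RPS27P3, RPL9P7, RPL24P4 and RPS26P6 lie lower.

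The most abundant copies of the other large families included further falls. RPL17P7 lay at 86.4 and 83.5 FPKM in CON and 60.1 and 60.4 in KD and fell by 0.49 (adjusted p = 0.000357), beside a fall of 0.37 in RPL17. RPL36AP37 lay at 94.9 and 91.3 in CON and 85.1 and 77.2 in KD (-0.20, adjusted p = 0.0284), a call lost in 7 of 14 alternatives, among them without CON replicate 2 (0.111) and CON replicate 3 (0.0592). RPL5P34 lay at 2.10 and 2.03 in CON and 1.41 and 1.42 in KD (-0.35, adjusted p = 0.0185), with adjusted p from 0.0542 to 0.1 when any 1 library was left out. RPS3AP6 lay at 13.4 and 12.5 in CON and 10.5 and 11.7 in KD (-0.21, adjusted p = 0.0454), a call lost in 9 of 14 alternatives, among them without CON replicate 2 (0.184), CON replicate 3 (0.072) and KD replicate 2 (0.141).

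Others of these did not pass. RPL23AP42 lay at 28.5 and 34.7 FPKM in CON and 24.2 and 37.8 in KD, and RPL7AP6 at 22.6 and 29.2 in CON and 21.3 and 22.9 in KD, both with overlapping groups. RPSAP15, from the gene of the laminin-receptor protein of the small subunit, lay at 24.0 and 27.0 in CON and 23.5 and 23.8 in KD. RPL29P4 had KD values of 42.7 and 61.6 below its unequal CON values (-0.66, adjusted p = 0.083), and RPL21P16 KD values of 94.5 and 109.0 (-0.27, adjusted p = 0.3). RPL12P16 lay at 7.56 and 6.76 in CON and 6.36 and 5.85 in KD, and RPL31P4 at 2.55 and 1.39 in CON and 0.488 and 1.44 in KD. RPS4XP16 lay at 0.663 and 0.611 in CON and 0.460 and 0.773 in KD, and it was under the filter. RPLP0P2, annotated as transcribed, was at 0 in 3 libraries and at 0.0282 in KD 2.

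A copy that lies inside another transcript can be read from its host. By the annotation deposited with the values, 538 of all 584 members were processed pseudogenes, 33 transcribed processed, 9 unprocessed and 4 long non-coding RNAs. Hosts were looked up in GENCODE 29, which held 580 members. On the strand of a host gene lay 149 members, 126 in an intron and 23 over an exon. Of 24 tested among them, 9 fell and none rose, and of the 100 others 32 fell and 2 rose, with median log2 changes of -0.23 and -0.21; both shares that fell are near the 31.1% of all genes tested.

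RPL9P7 lies in an intron of APOO, a gene of the mitochondrial inner membrane, which rose from 4.22 and 4.40 FPKM to 6.26 and 7.12 (0.53, adjusted p = 0.00375), while RPL9P7 fell. PLEKHA7 and SLC35F1, which hold RPL36AP37 and RPL29P4 in introns, lay at or under 0.00639 and 0.0209 FPKM in every library. NBEAL1, whose exon covers RPL12P16, lay between 0.404 and 0.694 FPKM.

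In the authors' deposited table, 21 of the 584 members had a q-value under 0.05, against 31.2% of all 29489 genes; that table also lists the members under the filter used here.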

How the data were processed

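Libraries were made from poly(A) RNA with dUTP marking of strand, per the labels' protocols. Tools named in the submitters' processing notes are HISAT2, fastp, edgeR and StringTie, and the build is GRCh38. The sources used here do not give the annotation release, the counting of reads with several matches or the strand setting, so overlapping, antisense and near-identical genes are uncertain. The authors deposited FPKM per gene and sample, per the file headers, and a q-value for the KD to CON comparison.

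Count models were not used, since FPKM are not counts. Replicate 1 was left out: in CON it equalled the mean of replicates 2 and 3 divided by 1.1 in 29488 of 29489 genes (all but ZHX2), and in KD that mean divided by 1.2 in all 29489, within a relative tolerance of 1e-09. Genes at 1 FPKM or more in 2 of 4 libraries were fitted with limma 3.58.1 (R 4.3.3) on log2(FPKM + 1), with a mean-variance trend, group as the only term, two-sided, and Benjamini-Hochberg adjustment at 0.05 over all genes tested, or over all 405 pairs for ratios. Residual degrees of freedom were 2 and prior ones 2.85 (2.66 for ratios). The fit was also run on simulated data with independent errors, in which far fewer genes were changed than the 58.6% that passed here. That run checked the working of the fit and gives no error rate for these data.

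Members were aligned to coding transcripts of the parent with blastn 2.17.0, in GENCODE release 29 on GRCh38, matched by gene ID. The permutation test used scipy 1.17.1. Members, lists and tests were chosen with earlier results of these data known. Named members are the 10 most abundant, up to 8 largest called rises and falls with groups apart, the most abundant of each parent with 10 or more copies, RPLP0P2, and their parents and same-strand hosts; RPL24P4, RPL11P3, RPL23AP65, RPL37P6 and RPS23P8 were added after their values were seen; RPSAP52 and RPSAP58, which the naming rule also lists, are not analysed here. Alternatives changed the pseudocount, filter, scaling, trend, replicate block, use of all 6 columns and each library in turn. A named item and its copy are not reported here.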

Additional observations from a re-analysis of the deposited data

How the results depend on the processing

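Of the values of named members under the alternatives, 398 kept their side of the threshold, 72 lost a call, 22 gained one and none that was called changed sign; RPL21P16 and RPL23AP42, which did not pass, took both signs. The count of members that rose, 2, became 6 with no filter on low values and 10 with all 6 columns, and ran from 2 to 5 with 1 library left out, 5 without CON replicate 3 or without KD replicate 2. The count that fell, 41, became 20 with no filter, where 584 members and 29489 genes were tested, and 61 with all 6 columns, and ran from 30 to 44 with 1 library left out. Called ratios to the parent, 0 in both directions, became 54 higher with no filter, where a pseudocount of 1 mutes a low member but not its parent, and 19 higher and 11 lower with all 6 columns, whose replicate 1 adds no measurement of its own. With 1 library left out they ran from 0 to 0 higher and from 0 to 1 lower, the 1 without CON replicate 3. The summed FPKM of KD over CON, 0.82, ran from 0.798 to 0.853. With the replicate block 47 fell and 3 rose, and no ratio was called; deviations of same-numbered libraries correlated at 0.00473 over all genes tested and -0.0576 over the 124 members, so the numbers were not taken as pairs. The median log2 change of the members was -0.03 over all 584 with no filter, -0.27 with a pseudocount of 0.1 and -0.16 after rescaling without mitochondrial genes, and no scaling moved the median of all genes by over 0.1. Depth is unknown, so no floor can be given for members at 0.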

Other observations

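Among the few tested copies of other abundant genes, some fell and some rose. Their counts stand beside 31.1% of all genes tested that fell and 27.6% that rose. EEF1A1, the elongation factor that brings aminoacyl-tRNA to the ribosome, fell by 0.42 (log2(FPKM + 1), limma adjusted p = 0.000133), and of its 8 tested pseudogenes 5 fell and none rose, with a median log2 change of -0.31. PTMA, which encodes the acidic nuclear protein prothymosin alpha, rose by 0.32 (adjusted p = 0.000586), and of its 4 tested pseudogenes 2 rose and 1 fell. NPM1, encoding a nucleolar protein, changed by 0.00 (adjusted p = 0.915), and of its 2 tested pseudogenes 1 rose. HSPA8, a constitutive chaperone gene, rose by 2.38 (adjusted p = 5.72e-06), and none of its 8 pseudogenes passed the filter. Of the copies of HNRNPA1, an RNA-binding protein gene, 5 were tested, of which 1 rose and 1 fell. Of 4 tested copies of PPIA, a cyclophilin gene, none passed, and of 4 of HMGB1, a chromatin protein gene, 1 fell. The other 11 abundant genes looked at in the same way, such as GAPDH and FTH1, had at most 1 copy that could be tested.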
